A study of Mus musculus with 12 samples.

Results

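The 35 genes described here encode the mouse NF-κB pathway and its feedback: receptors, adaptors and ubiquitin ligases, kinases, the Rel subunits, the IκB family, negative regulators and effector targets. They are a list of symbols, drawn up with earlier results of these data known, and all 35 were found by Ensembl identifier among the 54752 genes of the count table. Enough counts for a test were present for 32 of them, among 18434 tested genes in all. The remaining members, Tnfrsf1b, Traf1 and Icam1, stayed below the filter on low counts.

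RNA was sequenced from B16F10, an established mouse melanoma cell line, in 4 groups of 3 libraries. By genotype label these were Ep300 Crebbp knockout (double KO), Ep300 knockout (Ep300 KO), Crebbp knockout (Crebbp KO) and WT (control). All groups share the B16F10 background and grew in DMEM with 10% serum, and the labels name no cytokine or other stimulus. The labels do not say if a knockout is 1 clone or a pool, nor if replicate libraries came from different cultures, so every p-value measures the spread between these libraries only, which may be technical. The deleted genes code for the acetyltransferases p300 (Ep300) and CBP (Crebbp), close relatives that act as coactivators of transcription, and the groups allow each single loss and the combined loss to be compared with control.

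NF-κB transcription factors are dimers of Rel proteins that IκB proteins hold inactive in the cytoplasm. In the canonical branch, receptors such as the TNF receptor assemble TRAF proteins, RIPK1 and the cIAP ubiquitin ligases, the IκB kinase complex is switched on, IκB is phosphorylated and degraded, and dimers of RELA enter the nucleus, where p300 and CBP act as their coactivators. In the non-canonical branch the kinase NIK acts through IKKα on the precursor p100, which is cut to p52, the partner of RELB. Many target genes encode inhibitors of the pathway itself, among them IκBα and the deubiquitinase A20, and in human melanoma the pathway is often active without an external signal.

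Libraries held between 64257251 and 85604243 counts. CPM are counts relative to library size after TMM normalisation (trimmed mean of M values), and RPKM are CPM per kilobase of exon. Crebbp stood at 64.0 ± 6.13 CPM in double KO, 80.7 ± 11.9 in Ep300 KO, 34.5 ± 3.60 in Crebbp KO and 64.7 ± 7.00 in control (SD, n = 3 each). Ep300 stood at 148 ± 11.1 CPM in double KO, 85.1 ± 8.80 in Ep300 KO, 104 ± 12.4 in Crebbp KO and 94.4 ± 7.72 in control. Only Crebbp in Crebbp KO was called lower (log2 fold change -0.91 ± 0.12, adjusted p = 0.000527 in edgeR), and Ep300 in double KO was called higher (0.65 ± 0.10, adjusted p = 7.33e-05). Counts summed over a gene measure neither the deleted exons nor protein, so "double KO", "Ep300 KO" and "Crebbp KO" mean the libraries labelled so. All 9 melanocyte markers were detected, and their summed level was 6689 to 6857 CPM in double KO, 14634 to 15346 in Ep300 KO, 18798 to 19598 in Crebbp KO and 20022 to 21970 in control. Fibroblast markers summed to 12.7 to 13.8 CPM in double KO, 14.5 to 19.4 in Ep300 KO, 8.57 to 12.3 in Crebbp KO and 6.38 to 8.14 in control, and immune markers to 6.12 to 7.26 CPM in double KO, 4.25 to 5.22 in Ep300 KO, 2.25 to 3.15 in Crebbp KO and 3.28 to 4.35 in control. Within both lists the tested markers moved in opposite directions in double KO. Col1a1 averaged 8.15 CPM there against 2.59 in control, and Pdgfra 4.57 against 1.39, while Col1a2 averaged 0.368 against 3.35. Cd68 averaged 6.18 CPM in double KO against 1.87 in control, and Lyz2 0.596 against 1.81. The other fibroblast and immune markers stayed below the filter on low counts. Endothelial markers summed to at most 0.359 CPM and epithelial markers to at most 0.577 in any library, and Adgre1, Krt18 and Krt14 were at 0 counts in every library.

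In double KO most of the pathway was higher than in control. Of the 32 tested members, 19 rose and 3 fell, where 24.7% of all tested genes were called higher and 24.6% lower. The risers were Bcl3, Vcam1, Map3k14, Tnfaip3, Rela, Cyld, Nfkb2, Chuk, Relb, Ripk1, Ripk2, Nfkbia, Tnfrsf1a, Tnip2, Tbk1, Tnfaip2, Traf6, Ikbkg and Rel, and those that fell were Nfkbie, Sod2 and Ikbke. In Ep300 KO 7 members rose and 2 fell, against 7.27% of tested genes called higher and 8.83% called lower. The 7 were Vcam1, Rela, Nfkb2, Tnfaip2, Tbk1, Cyld and Chuk, and the 2 were Nfkbie and Sod2. In Crebbp KO no member rose and Tnfaip2 alone fell, against 1.52% called higher and 1.61% called lower, while 9 of 32 members, against 17.7% of all tested genes, had an unadjusted p under 0.05. DESeq2 called 1 member higher there, Vcam1, where it called 3.60% of all tested genes higher. Limma-voom called 0 members higher, against 1.13% of all tested genes.

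These calls come from the edgeR quasi-likelihood F test over all 12 libraries, adjusted over all tested genes by the Benjamini-Hochberg method with a threshold of 0.05, and every adjusted p below is from that fit. Log2 fold changes stand with their standard errors. The median log2 fold change of the 32 members was 0.33 in double KO, 0.07 in Ep300 KO and -0.02 in Crebbp KO, where that of all tested genes was -0.02 in double KO, 0.01 in Ep300 KO and -0.01 in Crebbp KO. The 3 comparisons share the same 3 control libraries. The 32 members passed the filter on their counts in at least 1 group, so these counts do not speak for all 35. Alongside, the summed level of 16 interferon-response genes was 2899 to 3031 CPM in double KO, 1018 to 1072 in Ep300 KO, 327 to 371 in Crebbp KO and 280 to 287 in control. The part of that response, of the lower melanocyte sum and of the differing fibroblast and immune marker sums in the NF-κB genes was not tested, and in bulk RNA a change in the share of cells of a kind and a change in RNA per cell cannot be told apart.

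**Figure D1:**
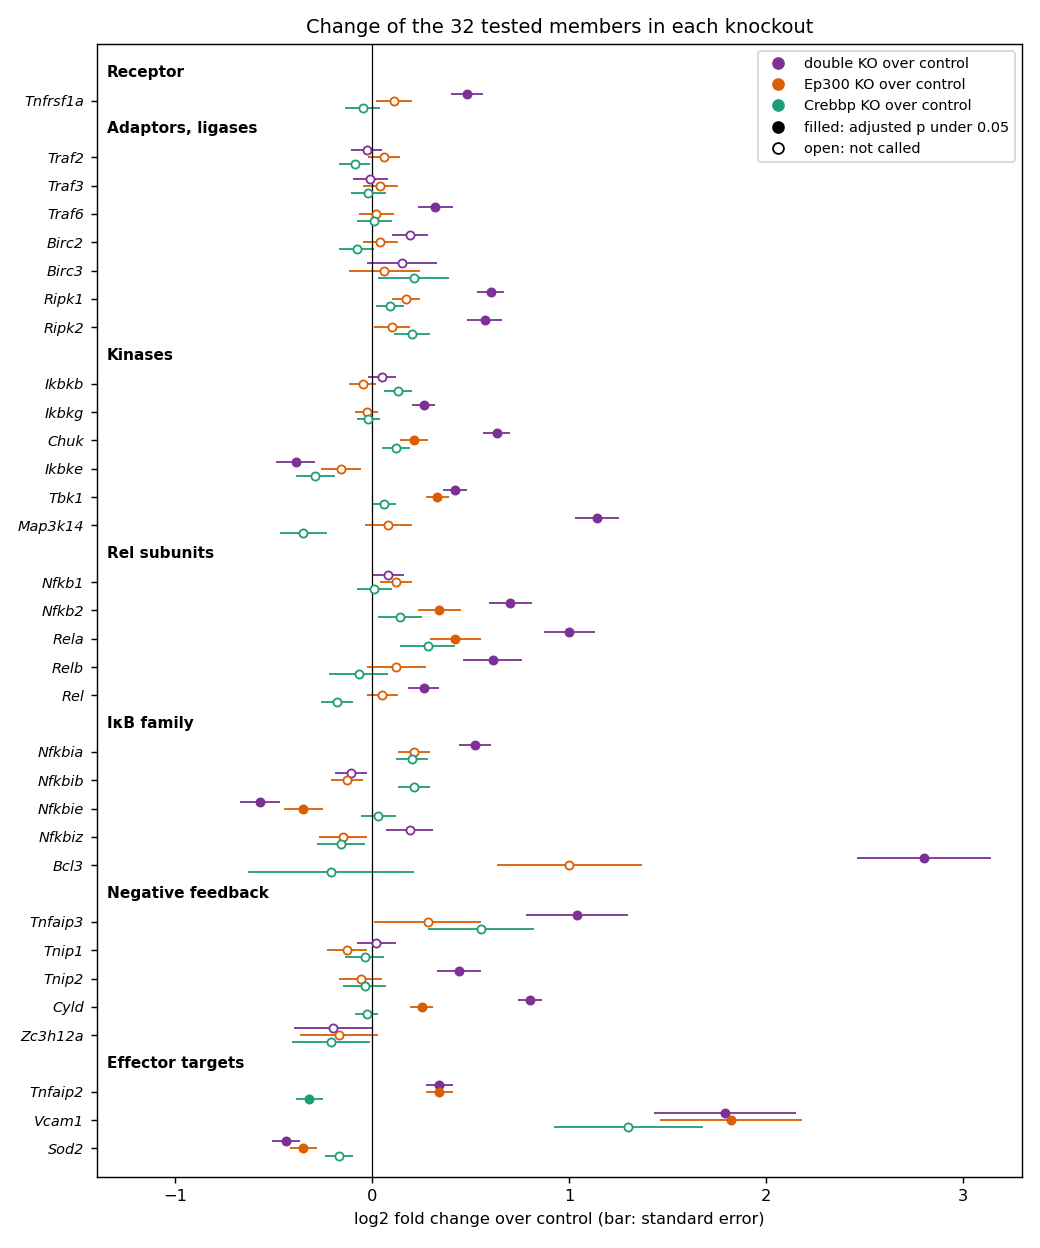
Log2 fold change over control (x axis, bars are standard errors) of the 32 tested members, grouped by role, in double KO, Ep300 KO and Crebbp KO, each with n = 3 libraries. Filled points passed the adjusted p threshold: 22 in double KO, of which 3 lie left of 0, 9 in Ep300 KO and 1 in Crebbp KO.

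The promoters of 4 members are shown because these genes were called in at least 2 of the 3 knockouts and hold a kappaB match, together with that of Bcl3, the member with the largest change, which was chosen after its values were seen. Windows run from 250 bases before to 50 bases after a RefSeq start on GRCm38.p6, in the direction of transcription, and capitals mark matches to the kappaB consensus, the sequence that Rel dimers bind, searched on both strands with overlaps allowed. Nfkb2 has 3 such windows, of which the most upstream is shown, with 3 matches in 2 stretches.
Bcl3, chr7:19822706-19823005, minus strand: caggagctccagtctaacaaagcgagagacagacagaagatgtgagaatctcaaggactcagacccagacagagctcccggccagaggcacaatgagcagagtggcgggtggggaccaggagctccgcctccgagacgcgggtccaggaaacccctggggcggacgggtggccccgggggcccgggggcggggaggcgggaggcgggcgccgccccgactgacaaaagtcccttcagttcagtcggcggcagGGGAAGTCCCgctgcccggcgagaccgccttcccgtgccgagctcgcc
Cyld, chr8:88696778-88697077, plus strand: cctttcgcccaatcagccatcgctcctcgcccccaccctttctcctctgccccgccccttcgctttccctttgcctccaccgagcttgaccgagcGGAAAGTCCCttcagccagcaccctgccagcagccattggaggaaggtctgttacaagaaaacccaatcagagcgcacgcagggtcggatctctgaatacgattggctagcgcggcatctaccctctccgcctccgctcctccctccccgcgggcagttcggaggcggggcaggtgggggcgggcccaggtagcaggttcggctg
Nfkb2, chr19:46304487-46304786, plus strand: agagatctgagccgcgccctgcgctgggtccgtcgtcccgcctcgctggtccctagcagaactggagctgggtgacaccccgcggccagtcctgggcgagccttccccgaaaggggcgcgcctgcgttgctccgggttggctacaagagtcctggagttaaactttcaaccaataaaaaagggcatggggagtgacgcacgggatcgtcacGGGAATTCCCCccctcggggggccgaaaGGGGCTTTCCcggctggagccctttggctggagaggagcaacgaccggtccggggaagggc
Nfkbie, chr17:45555450-45555749, plus strand: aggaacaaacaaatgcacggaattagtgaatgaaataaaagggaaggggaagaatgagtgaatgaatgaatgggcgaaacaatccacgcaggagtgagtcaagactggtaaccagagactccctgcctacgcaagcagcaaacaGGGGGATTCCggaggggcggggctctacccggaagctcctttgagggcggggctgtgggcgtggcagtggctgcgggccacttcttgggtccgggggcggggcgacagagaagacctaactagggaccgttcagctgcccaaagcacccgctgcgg
Sod2, chr17:13007589-13007888, plus strand: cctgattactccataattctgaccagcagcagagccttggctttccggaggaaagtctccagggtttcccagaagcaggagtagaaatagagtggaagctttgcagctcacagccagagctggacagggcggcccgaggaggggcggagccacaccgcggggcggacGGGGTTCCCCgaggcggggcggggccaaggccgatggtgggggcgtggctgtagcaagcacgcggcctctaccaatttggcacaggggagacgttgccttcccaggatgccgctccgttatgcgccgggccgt
Of the genes shown, Bcl3, Cyld and Nfkb2 rose in double KO and Nfkbie and Sod2 fell, and that each holds a match follows from how they were picked. The windows of Rela, Chuk and Tbk1, also called in 2 knockouts, and of Tnfaip2, called in all 3, hold none.

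RefSeq windows were matched by symbol for 29 of the 35 members, and not for Nfkbiz, Ikbkb, Ripk2, Vcam1, Nfkb1 and Relb. A kappaB match lay in a window of 10 of the 29 genes (34.5%), against 5.14% of 27025 genes with a window of this length. The 10 were 8 of 13 inducible targets (Bcl3, Tnfaip3, Rel, Tnip1, Nfkbia, Sod2, Nfkbie and Nfkb2) and 2 of 16 pathway components (Cyld and Traf3). The inducible targets were listed as textbook NF-κB target genes, so the share in the list cannot be separated from how its genes were chosen. The core of the interferon response element, GAAANNGAA, lay in windows of 4 members, Tnfrsf1b, Cyld, Nfkbia and Ripk1, against 9.76% of all genes. The cAMP response element, TGACGTCA, lay in that of Birc2 alone, against 2.03%. In double KO, 6 of 10 tested members with a kappaB match rose and 2 fell (median log2 fold change 0.39), and 10 of 16 without a match rose and 1 fell (median 0.33). Over all tested genes with a window, 34.2% of 685 with a match and 30.3% of 10367 without were called higher. A match describes letters and not a bound site.

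Tnfrsf1a, which encodes the widely expressed TNF receptor, had 49.6, 51.7 and 51.3 CPM in double KO, 34.2, 39.2 and 44.0 in Ep300 KO, 35.9, 35.6 and 33.9 in Crebbp KO, and 36.5, 33.4 and 39.2 in control. The double KO libraries lay above all others. It rose in double KO by a log2 fold change of 0.48 ± 0.08 (adjusted p = 0.000246), while the other knockouts overlapped control (0.11 ± 0.09 in Ep300 KO, -0.05 ± 0.09 in Crebbp KO). Tnfrsf1b, the receptor of more restricted expression, had 0 to 9 counts in any library and was not tested.

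Among the adaptors and ubiquitin ligases that couple receptors to the kinases, 3 of 7 tested members rose in double KO (median log2 fold change 0.19) and none was called in Ep300 KO or Crebbp KO. Over all tested genes 24.7% rose in double KO, and this role, like those below, holds few genes. Ripk1 encodes the kinase and scaffold of the TNF receptor complex (ENSMUSG00000021408, chromosome 13, 34002363 to 34037147). It had 36.2, 37.3 and 33.4 CPM in double KO, 27.2, 24.8 and 27.1 in Ep300 KO, 26.5, 24.5 and 23.7 in Crebbp KO, and 24.0, 22.2 and 24.3 in control. All double KO libraries lay above all others, and all Ep300 KO libraries above control, the first by 0.60 ± 0.07 (adjusted p = 6.65e-06) and the second by 0.17 ± 0.07, which was not called (adjusted p = 0.147) but passed with offsets for exon length and GC content (0.23, adjusted p = 0.00927).

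Ripk2, the kinase downstream of NOD receptors (ENSMUSG00000041135, chromosome 4, 16122733 to 16163647, minus strand), had 17.7, 18.3 and 16.5 CPM in double KO, 13.7, 11.4 and 12.8 in Ep300 KO, 14.2, 13.9 and 12.6 in Crebbp KO, and 13.1, 11.5 and 10.7 in control. Only the double KO libraries of this gene were clear of control, by 0.57 ± 0.09 (adjusted p = 0.000132). Traf6, the ubiquitin ligase of the IL-1 and Toll-like receptor branch, averaged 60.4 ± 2.09 CPM in double KO, 48.9 ± 5.58 in Ep300 KO, 48.7 ± 4.70 in Crebbp KO and 48.4 ± 2.20 in control, a rise of 0.32 ± 0.09 in double KO (adjusted p = 0.00656).

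The ligases of the TNF receptor complex were not called against control. Traf2 averaged 16.6 ± 0.677 CPM in double KO, 17.6 ± 0.821 in Ep300 KO, 16 ± 0.781 in Crebbp KO and 17.0 ± 1.50 in control, and its log2 fold change in double KO had a 95% interval of -0.21 to 0.15. Traf3, which keeps NIK low in resting cells, averaged 50.1 ± 2.00 CPM in double KO, 51.8 ± 4.16 in Ep300 KO, 49.7 ± 5.64 in Crebbp KO and 50.5 ± 5.04 in control, with an interval of -0.23 to 0.20 in double KO. For these genes a rise of the size seen in Ripk1 lies outside the interval. Birc2, which encodes cIAP1, averaged 25.3 ± 1.22 CPM in double KO, 22.9 ± 2.12 in Ep300 KO, 20.9 ± 2.04 in Crebbp KO and 22.2 ± 2.22 in control, and 0.19 ± 0.09 in double KO did not pass (adjusted p = 0.11), while double KO over Crebbp KO did (0.27 ± 0.09, adjusted p = 0.0282). Birc3, its inducible paralog cIAP2, averaged 1.38 ± 0.137 CPM in double KO, 1.29 ± 0.255 in Ep300 KO, 1.44 ± 0.136 in Crebbp KO and 1.23 ± 0.130 in control. Traf1, an inducible adaptor, had 0 to 5 counts in any library.

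Of 6 kinases, 4 rose and 1 fell in double KO, and 2 rose in Ep300 KO. Over all tested genes 24.7% rose and 24.6% fell in double KO, and 7.27% rose in Ep300 KO. The widest change belonged to Map3k14, which encodes NIK, the kinase that starts the non-canonical branch (ENSMUSG00000020941, chromosome 11, 103219762 to 103267472, minus strand). It had 5.81, 5.89 and 5.40 CPM in double KO, 2.79, 2.57 and 2.83 in Ep300 KO, 2.19, 1.73 and 2.15 in Crebbp KO, and 2.42, 2.69 and 2.65 in control. The double KO libraries were all more than 5 CPM and every other library was under 3 CPM, with a fold change of 2.20 over control (log2 1.14 ± 0.11, adjusted p = 8.38e-07). With offsets for exon length and GC content the log2 value was 0.83. All Crebbp KO libraries lay below all control libraries, at -0.35 ± 0.12, which did not pass (adjusted p = 0.134).

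Chuk encodes IKKα, the catalytic subunit that serves the non-canonical branch (ENSMUSG00000025199, chromosome 19, 44073335 to 44107480, minus strand). It had 103, 114 and 103 CPM in double KO, 84.1, 77.2 and 77.4 in Ep300 KO, 77.1, 76.9 and 70.4 in Crebbp KO, and 70.7, 68.2 and 67.9 in control. Group means stepped down in that order, the Crebbp KO libraries overlapping control, with a rise of 0.63 ± 0.07 in double KO (adjusted p = 1.6e-06). The rise of 0.21 ± 0.07 in Ep300 KO was near the threshold (adjusted p = 0.0447), and leaving out any 1 library ended it except Ep300 KO replicate 3, Crebbp KO replicate 3 or double KO replicate 2. Ikbkb, which encodes the canonical catalytic subunit IKKβ, averaged 36.4 ± 1.51 CPM in double KO, 34.0 ± 1.99 in Ep300 KO, 38.5 ± 1.12 in Crebbp KO and 35.2 ± 1.57 in control, and was not called (double KO 95% interval -0.10 to 0.20). Ikbkg, the regulatory subunit NEMO, averaged 47.4 ± 1.21 CPM in double KO, 38.9 ± 1.68 in Ep300 KO, 39.2 ± 1.66 in Crebbp KO and 39.6 ± 1.12 in control, a rise of 0.26 ± 0.06 in double KO (adjusted p = 0.00235).

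The IKK-related kinases TBK1 and IKKε moved in opposite directions. Tbk1 averaged 57.5 ± 1.82 CPM in double KO, 54.0 ± 2.75 in Ep300 KO, 44.6 ± 0.884 in Crebbp KO and 42.9 ± 2.51 in control. It rose in double KO by 0.42 ± 0.06 (adjusted p = 6.09e-05) and in Ep300 KO by 0.33 ± 0.06 (adjusted p = 0.00171), and double KO over Ep300 KO was not called (0.09 ± 0.06, 95% interval -0.05 to 0.24). Ikbke averaged 5.37 ± 0.489 CPM in double KO, 6.32 ± 0.507 in Ep300 KO, 5.79 ± 0.305 in Crebbp KO and 7.06 ± 0.468 in control, and fell in double KO by 0.39 ± 0.10 on the log2 scale (adjusted p = 0.00401).

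Among the Rel subunits, the transcription factors themselves, 4 of 5 rose in double KO and 2 in Ep300 KO, against 24.7% and 7.27% of all tested genes. Rela, which encodes the main transactivating subunit p65 (ENSMUSG00000024927, chromosome 19, 5637483 to 5648130), had 34.9, 34.7 and 32.4 CPM in double KO, 18.4, 22.6 and 27.3 in Ep300 KO, 21.7, 22.6 and 17.8 in Crebbp KO, and 18, 14.1 and 18.7 in control. Every double KO library lay above every other, at a fold change of 2.00 over control (log2 1.00 ± 0.13, adjusted p = 2.09e-05). With offsets for exon length and GC content the log2 value was 0.78. In Ep300 KO the libraries overlapped control, and the rise was 0.42 ± 0.13 (adjusted p = 0.044), or 0.27 without Ep300 KO replicate 3 (adjusted p = 0.196). Leaving out any 1 library ended that call except control replicate 3, Ep300 KO replicate 1 or Crebbp KO replicates 2 and 3.

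Nfkb2 encodes p100, the precursor of p52 (ENSMUSG00000025225, chromosome 19, 46304320 to 46312385). It had 27.9, 30.3 and 25.8 CPM in double KO, 18.6, 20.6 and 26.0 in Ep300 KO, 20.6, 18.9 and 17.6 in Crebbp KO, and 18, 16.6 and 17.1 in control. Ep300 KO replicate 3 reached the double KO range, and the others did not. The gene rose by 0.70 ± 0.11 in double KO (adjusted p = 7.94e-05), or by 0.41 with offsets for exon length and GC content. In Ep300 KO it rose by 0.34 ± 0.11 (adjusted p = 0.0473), or 0.18 without Ep300 KO replicate 3 (adjusted p = 0.217), and only leaving out Ep300 KO replicate 1 or Crebbp KO replicate 3 kept the call.

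Relb, the partner of p52 (ENSMUSG00000002983, chromosome 7, 19606217 to 19629438, minus strand), had 7.57, 6.89 and 6.05 CPM in double KO, 3.83, 5.00 and 5.72 in Ep300 KO, 4.47, 4.51 and 3.80 in Crebbp KO, and 4.27, 5.16 and 4.01 in control. The double KO libraries lay above all others, a rise of 0.61 ± 0.15 (adjusted p = 0.00254), or 0.42 with the offsets, and the single knockouts overlapped control. Rel, which encodes c-Rel, averaged 13.5 ± 0.256 CPM in double KO, 11.7 ± 0.863 in Ep300 KO, 9.94 ± 0.524 in Crebbp KO and 11.3 ± 0.841 in control, a rise of 0.26 ± 0.08 in double KO (adjusted p = 0.0159). That call ended without control replicate 2 (0.20, adjusted p = 0.0680) and without double KO replicate 2 (0.25, adjusted p = 0.0514). Nfkb1, which encodes the p50 precursor p105, averaged 44.1 ± 2.80 CPM in double KO, 45.2 ± 4.68 in Ep300 KO, 42.0 ± 3.67 in Crebbp KO and 41.6 ± 1.60 in control, and was not called in any knockout against control, although Ep300 KO passed with the offsets (0.19, adjusted p = 0.0365).

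**Figure D2:**
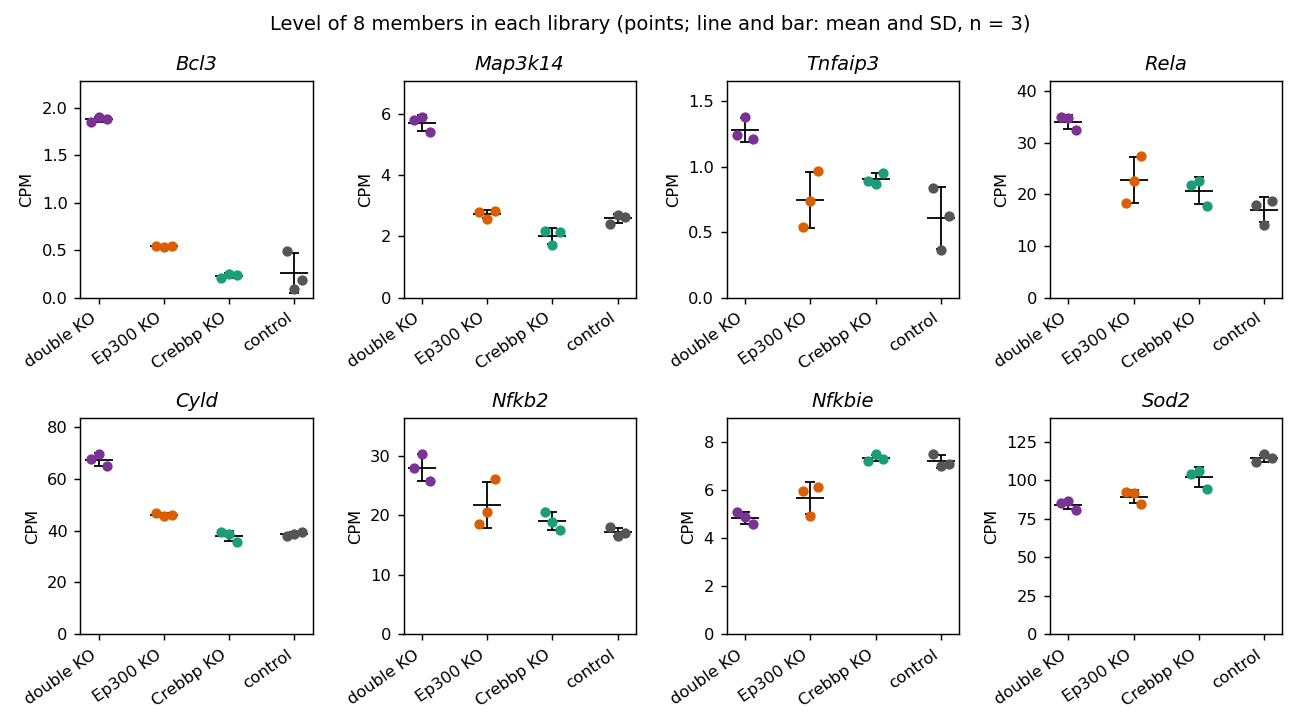
Level in CPM (y axis, from 0) of 8 members in every library, by group, with the mean and SD of n = 3. Bcl3, Map3k14, Rela and Cyld are highest in all 3 double KO libraries, Nfkbie and Sod2 are lower in double KO and Ep300 KO than in control, and Bcl3 in control replicate 1 stands at 0.495 CPM, above 0.0874 and 0.189 in the other control libraries.

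The IκB family split. Nfkbia encodes IκBα, the rapidly resynthesised inhibitor of RELA dimers (ENSMUSG00000021025, chromosome 12, 55489410 to 55492647, minus strand). It had 13.4, 13.1 and 11.9 CPM in double KO, 10.5, 10.3 and 10.2 in Ep300 KO, 10.2, 9.94 and 10.6 in Crebbp KO, and 8.71, 9.81 and 8.35 in control. All libraries of each knockout lay above all control libraries, but only double KO was called (0.52 ± 0.08, adjusted p = 8.04e-05), with 0.21 ± 0.08 in Ep300 KO (adjusted p = 0.102, or 0.0377 without control replicate 2) and 0.20 ± 0.08 in Crebbp KO (adjusted p = 0.227).

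Nfkbie, which encodes IκBε, went down instead (ENSMUSG00000023947, chromosome 17, 45555703 to 45563169). It had 5.09, 4.88 and 4.61 CPM in double KO, 5.97, 4.93 and 6.13 in Ep300 KO, 7.23, 7.50 and 7.31 in Crebbp KO, and 7.52, 7.01 and 7.10 in control. The double KO and Ep300 KO libraries all lay below all control and Crebbp KO libraries, and the gene fell in double KO by 0.57 ± 0.10 on the log2 scale (adjusted p = 0.000166) and in Ep300 KO by 0.35 ± 0.10 (adjusted p = 0.0207). The Ep300 KO call ended without control replicate 1 (-0.32, adjusted p = 0.0818) and without Ep300 KO replicate 2 (-0.26, adjusted p = 0.102).

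Bcl3 encodes an atypical nuclear IκB protein that acts with p50 and p52 dimers (ENSMUSG00000053175, chromosome 7, 19808462 to 19822770, minus strand). It had 170, 161 and 176 counts in double KO, 39, 44 and 46 in Ep300 KO, 15, 17 and 16 in Crebbp KO, and 39, 5 and 14 in control, which is 1.85, 1.90 and 1.88 CPM in double KO and 0.542, 0.533 and 0.548 CPM in Ep300 KO. The double KO libraries stood well clear of all others, at a fold change of 6.94 over control (log2 2.80 ± 0.34, adjusted p = 7.89e-06), or log2 3.70 without control replicate 1 (adjusted p = 1.37e-07). In Ep300 KO the value was 1.00 ± 0.37 and did not pass (adjusted p = 0.0834). Without control replicate 1, which had as many counts as Ep300 KO replicate 1, the Ep300 KO value was 1.90 and passed (adjusted p = 0.000655), and it also passed in limma-voom (1.28, adjusted p = 0.0380) and DESeq2 (1.02, adjusted p = 0.0268).

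Nfkbib, which encodes IκBβ, averaged 16.4 ± 0.180 CPM in double KO, 16.2 ± 1.22 in Ep300 KO, 20.6 ± 1.31 in Crebbp KO and 17.7 ± 0.950 in control. No knockout was called against control, although with the offsets double KO (-0.27, adjusted p = 0.00353) and Ep300 KO (-0.22, adjusted p = 0.0322) were, while double KO and Ep300 KO were both lower than Crebbp KO (-0.32 ± 0.08, adjusted p = 0.00306, and -0.35 ± 0.08, adjusted p = 0.00606). Nfkbiz, which encodes the inducible nuclear IκBζ, averaged 5.56 ± 0.382 CPM in double KO, 4.42 ± 0.503 in Ep300 KO, 4.35 ± 0.333 in Crebbp KO and 4.87 ± 0.681 in control, and was not called against control, while double KO was higher than Ep300 KO (0.33 ± 0.12, adjusted p = 0.0452) and than Crebbp KO (0.35 ± 0.12, adjusted p = 0.0301). The Nfkbiz call over Ep300 KO ended in 12 of 21 alternatives and that over Crebbp KO in 6 of 21.

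Negative regulators rose in 3 of 5 cases in double KO, against 24.7% of all tested genes. Cyld encodes a deubiquitinase that removes the ubiquitin chains of the receptor complexes (ENSMUSG00000036712, chromosome 8, 88697028 to 88751945). It had 67.6, 69.5 and 64.7 CPM in double KO, 46.9, 45.4 and 46.1 in Ep300 KO, 39.3, 38.7 and 35.5 in Crebbp KO, and 37.9, 38.6 and 39.5 in control. Double KO lay above Ep300 KO and Ep300 KO above control without overlap, with rises of 0.80 ± 0.06 in double KO (adjusted p = 3.99e-08) and 0.25 ± 0.06 in Ep300 KO (adjusted p = 0.00814). Among the 32 members no other had as small an adjusted p in double KO.

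Tnfaip3 encodes A20, the ubiquitin-editing inhibitor and a classic NF-κB target (ENSMUSG00000019850, chromosome 10, 19000910 to 19015657, minus strand). It had 114, 117 and 113 counts in double KO, 39, 61 and 81 in Ep300 KO, 66, 58 and 63 in Crebbp KO, and 66, 21 and 46 in control. The control and Ep300 KO libraries were scattered, while the double KO libraries were all higher, at 1.28 ± 0.0923 CPM against 0.609 ± 0.236 in control (log2 fold change 1.04 ± 0.26, adjusted p = 0.00354). Crebbp KO stood 0.55 above control without a call (adjusted p = 0.309), and double KO over Crebbp KO was not called (0.49, adjusted p = 0.123). Double KO over Ep300 KO was called (0.76, adjusted p = 0.0282), but that call ended in 7 of 21 alternatives. Tnip2, which encodes an A20-binding protein, averaged 6.08 ± 0.276 CPM in double KO, 4.30 ± 0.0265 in Ep300 KO, 4.35 ± 0.493 in Crebbp KO and 4.46 ± 0.495 in control, a rise of 0.44 ± 0.11 in double KO (adjusted p = 0.0031).

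Its relative Tnip1 averaged 22.9 ± 0.176 CPM in double KO, 20.5 ± 3.51 in Ep300 KO, 21.9 ± 1.12 in Crebbp KO and 22.5 ± 1.64 in control, and was not called, except in Ep300 KO without its replicate 3 (-0.28, adjusted p = 0.0216). Zc3h12a, which encodes the RNase regnase-1 that degrades inflammatory transcripts, averaged 1.09 ± 0.0976 CPM in double KO, 1.11 ± 0.148 in Ep300 KO, 1.08 ± 0.201 in Crebbp KO and 1.26 ± 0.261 in control. It was not called either, with a double KO 95% interval of -0.65 to 0.25 on the log2 scale.

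The effector targets did not move as 1 group. Vcam1, a vascular adhesion molecule that is strongly NF-κB dependent in endothelium, was near the detection limit (ENSMUSG00000027962, chromosome 3, 116109949 to 116129688, minus strand). It had 50, 39 and 42 counts in double KO, 39, 48 and 30 in Ep300 KO, 20, 28 and 23 in Crebbp KO, and 14, 10 and 5 in control. All knockout libraries lay above all control libraries, with a log2 fold change of 1.79 ± 0.36 in double KO (adjusted p = 0.000789), 1.82 ± 0.36 in Ep300 KO (adjusted p = 0.00245) and 1.30 ± 0.38 in Crebbp KO, which did not pass (adjusted p = 0.0788). Double KO over Ep300 KO was -0.02 ± 0.31, with a 95% interval of -0.73 to 0.69. Icam1, another adhesion target, had 0 to 6 counts in any library.

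Tnfaip2, a TNF-induced gene, had 30.0, 28.2 and 29.2 CPM in double KO, 28.5, 29.3 and 29.2 in Ep300 KO, 20.1, 18.2 and 16.8 in Crebbp KO, and 23.3, 23.7 and 21.9 in control. Double KO and Ep300 KO lay above control, each by 0.34 ± 0.07 (adjusted p = 0.000964 in double KO and 0.00367 in Ep300 KO), and Crebbp KO lay below it by 0.32 ± 0.07 on the log2 scale (adjusted p = 0.0262). The single knockouts thus stood on opposite sides of control, with Ep300 KO over Crebbp KO at 0.66 ± 0.07 (adjusted p = 1.1e-05). The double KO rise ended with offsets for exon length and GC content (0.10, adjusted p = 0.232), and the Crebbp KO fall ended without control replicate 1 or 2 or without Crebbp KO replicate 2 or 3 (adjusted p 0.0590 to 0.102). Sod2, which encodes the mitochondrial superoxide dismutase, had 85.2, 86.2 and 80.8 CPM in double KO, 92.2, 91.5 and 84.2 in Ep300 KO, 104, 106 and 94.2 in Crebbp KO, and 112, 117 and 114 in control. It fell in double KO by 0.44 ± 0.07 on the log2 scale (adjusted p = 5.25e-05) and in Ep300 KO by 0.35 ± 0.07 (adjusted p = 0.00123), and all Crebbp KO libraries also lay below control without a call (-0.17 ± 0.07, adjusted p = 0.185).

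Textbook inducible targets and the other pathway components were set side by side. Of 17 inducible targets 15 were tested, of which 8 rose and 2 fell in double KO (median log2 fold change 0.26), 3 rose and 2 fell in Ep300 KO (median 0.12), and 1 fell in Crebbp KO (median -0.04). Of 18 components 17 were tested, of which 11 rose and 1 fell in double KO (median 0.42), 4 rose in Ep300 KO (median 0.06), and none was called in Crebbp KO (median -0.02). These stand against 24.7% of all tested genes higher and 24.6% lower in double KO, 7.27% and 8.83% in Ep300 KO, and 1.52% and 1.61% in Crebbp KO, and the counts in the single knockouts rest on few calls. With offsets for exon length and GC content the components split into 11 higher and 3 lower in double KO, as Traf3 and Nfkbib were then called lower, and the targets into 7 higher and 2 lower, as Tnfaip2 was no longer called. Over all tested genes 23.8% were then called higher and 26.7% lower, so the lower calls of both classes stay under that share. Values among the targets ranged from -0.57 (Nfkbie) to 2.80 (Bcl3) in double KO, and among the components from -0.39 (Ikbke) to 1.14 (Map3k14). The difference between the classes was not tested.

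**Figure D3:**
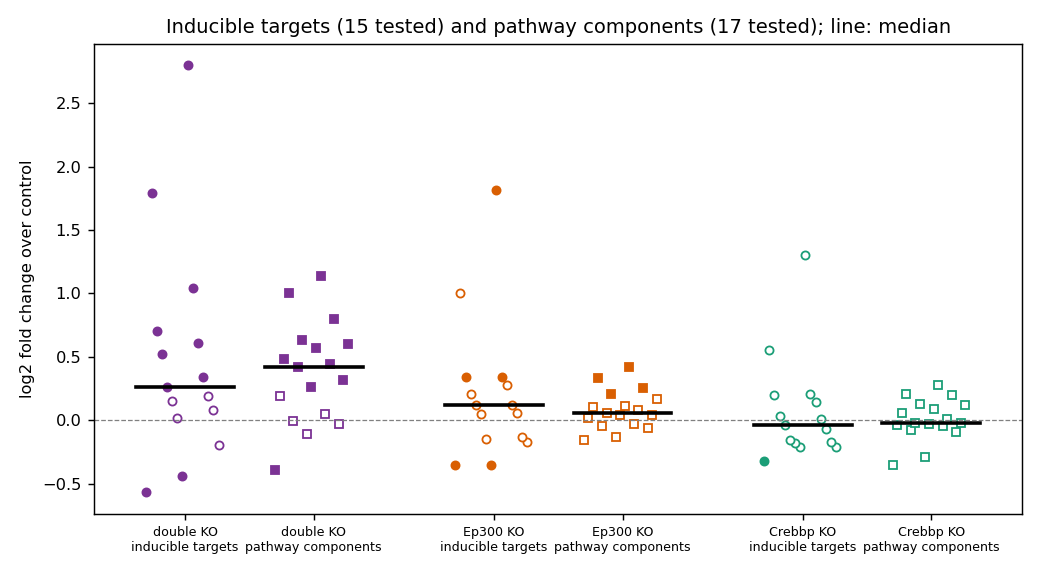
Log2 fold change over control (y axis) of 15 inducible targets (circles) and 17 pathway components (squares) in double KO, Ep300 KO and Crebbp KO. Lines are medians and filled symbols passed the adjusted p threshold: the medians in double KO are 0.26 for targets and 0.42 for components, and both lie near 0 in Crebbp KO.

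Double KO was also set against each single knockout. Over Ep300 KO, 16 members rose and none fell, against 18% of tested genes called higher and 16.6% called lower. With offsets for exon length and GC content this became 13 higher and 5 lower, where 15% of all tested genes were called higher and 18.8% lower, so that the 5 are near the background. Map3k14 (1.06 ± 0.11, adjusted p = 5.26e-06), Bcl3 (1.79 ± 0.31, adjusted p = 0.000516) and Cyld (0.54 ± 0.06, adjusted p = 8.61e-06) were among the 16. Over Crebbp KO, 19 rose and 3 fell (Nfkbie, Nfkbib and Sod2), against 21.4% called higher and 21.8% called lower, with Bcl3 at 3.00 ± 0.35 (adjusted p = 6.23e-06) and Map3k14 at 1.49 ± 0.11 (adjusted p = 6.67e-08). Between the single knockouts, Ep300 KO over Crebbp KO had 5 members higher (Tnfaip2, Cyld, Tbk1, Map3k14 and Bcl3) and 2 lower (Nfkbib and Nfkbie), against 6.26% and 7.37% of tested genes. The Bcl3 call there ended in 12 of 21 alternatives, that of Map3k14 in 4 and that of Nfkbie in 3. Tnfaip2, Vcam1 and Sod2 in double KO were not called against Ep300 KO, with 95% intervals of -0.16 to 0.17, -0.73 to 0.69 and -0.24 to 0.06. With offsets for exon length and GC content Tnfaip2 was called lower (-0.19, adjusted p = 0.0383). Sod2 was called lower in 2 of 21 alternatives, its lowest value over all of them being -0.19.

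The double KO change was then compared with the sum of both single KO changes on the log2 scale, within the same fit. It was above the sum for 9 members and below it for none, against 5.33% of tested genes above and 4.96% below. Map3k14 had the clearest excess: its change was 1.14 in double KO, 0.08 in Ep300 KO and -0.35 in Crebbp KO, an excess of 1.41 ± 0.16 (adjusted p = 7.02e-05). Cyld, at 0.80 in double KO, 0.25 in Ep300 KO and -0.03 in Crebbp KO, exceeded the sum by 0.58 ± 0.08 (adjusted p = 0.000548). These were the only members of the 9 that stayed called under all alternatives run. The excess of Bcl3, 2.00 ± 0.52 (adjusted p = 0.0243), was 1.10 without control replicate 1 (adjusted p = 0.136), and the call also ended without Ep300 KO replicate 2, Crebbp KO replicate 1 or double KO replicate 2 or 3.

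The other members above the sum were Tnip2 (0.54 ± 0.15), Tnfrsf1a (0.43 ± 0.12), Rel (0.39 ± 0.12), Ripk1 (0.35 ± 0.10), Chuk (0.31 ± 0.09) and Ikbkg (0.30 ± 0.09), with adjusted p between 0.0344 and 0.0494, and each of these calls ended when any 1 of several libraries was left out. For Rela, 1.00 in double KO stood beside 0.42 in Ep300 KO and 0.28 in Crebbp KO, and the difference from the sum was 0.29 ± 0.19 (adjusted p = 0.361). Nfkb2 (0.22 ± 0.15, adjusted p = 0.396) and Nfkbia (0.12 ± 0.11, adjusted p = 0.571) likewise did not pass. Vcam1 lay farthest below the sum, at -1.33 ± 0.49, and did not pass (adjusted p = 0.10). By class, 7 of 17 components and 2 of 15 targets were above the sum, against 5.33% of all tested genes. Of the 7 components only Map3k14 and Cyld kept the call in every alternative, and the difference between the classes was not tested.

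**Figure D4:**
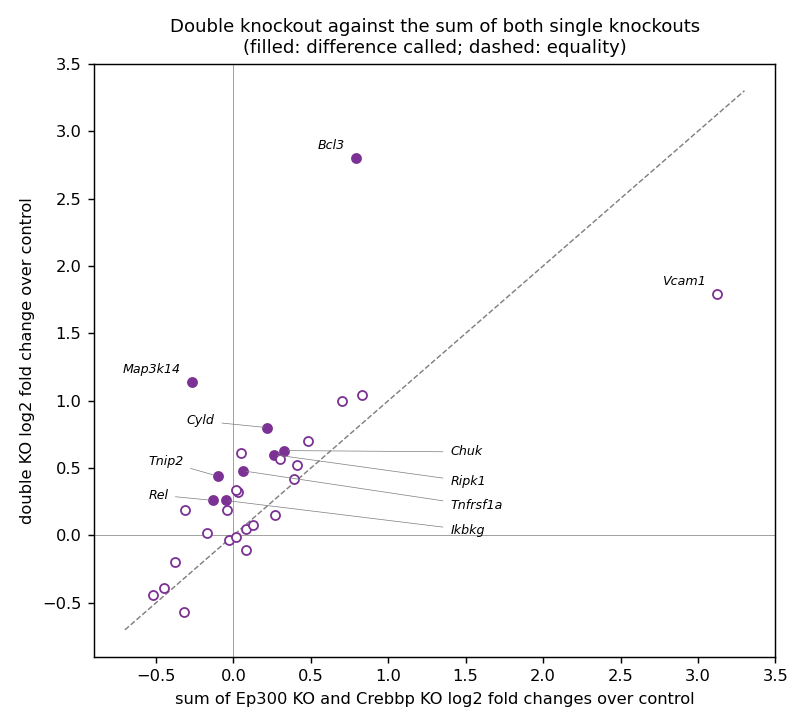
Double KO log2 fold change over control (y axis) against the sum of the Ep300 KO and Crebbp KO log2 fold changes (x axis) for the 32 tested members, with equality dashed. Filled points are the 9 members whose difference passed the adjusted p threshold, all above the line, with Map3k14 at -0.27 on the x axis and 1.14 on the y axis.

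Per kilobase of exon, the order of levels across members differed between groups mainly through the genes above. Tnfrsf1a and Chuk led in double KO at 19.6 ± 0.434 and 21.0 ± 1.26 RPKM (SD, n = 3), against 14.0 ± 1.13 and 13.5 ± 0.302 RPKM in control, where these neighbours differed by less than their spread. Tbk1 followed at 14.7 ± 0.465 RPKM in double KO, against 11.0 ± 0.642 in control. Rela stood at 11.1 ± 0.458 RPKM in double KO, above Nfkb2 at 6.10 ± 0.484, Nfkb1 at 3.65 ± 0.232, Rel at 1.81 ± 0.0343 and Relb at 1.76 ± 0.195. In control Rela stood at 5.52 ± 0.799 RPKM, Nfkb2 at 3.76 ± 0.151, Nfkb1 at 3.45 ± 0.133, Rel at 1.51 ± 0.113 and Relb at 1.15 ± 0.155, so Rela had the highest RPKM of the Rel subunits in both. That order depends on exon length, which covers all annotated exons of a gene: 12061 bases for Nfkb1 and 3072 for Rela. In CPM Nfkb1 was above Rela, at 41.6 against 17.0 in control and 44.1 against 34.0 in double KO. The kinase of the non-canonical branch, Map3k14, was scarce at 0.870 ± 0.0401 RPKM in double KO and 0.395 ± 0.0219 in control. Bcl3 reached 0.759 ± 0.0108 RPKM in double KO, against 0.104 ± 0.0857 in control. At the bottom of the order, Vcam1, Tnfrsf1b, Traf1 and Icam1 stayed under 0.06 RPKM in every group mean.

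Parts of some members' exons overlap other annotated genes, so the counts of these parts are uncertain. For genes on the opposite strand this holds only if counting ignored strand, and no source used here gives the strand setting. The overlap covered 14.5% of the exon bases of Nfkbib, 11.6% of those of Nfkb2 with AC114539.1 and 6.52% with Psd, 6.51% of Bcl3, 6.3% of Tnfaip2 and 5.15% of Ikbkg, all with genes on the opposite strand. Overlap with a gene on the same strand, which does not depend on that setting, covered 6.12% of Ripk1 and 2.06% of Map3k14.

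Beyond the 35 members, 80 further pathway genes (ligands, receptors, signalling proteins and targets) were read, of which 53 were tested. In double KO 30 rose and 8 fell (median log2 fold change 0.31), in Ep300 KO 17 rose and 5 fell (median 0.07), and in Crebbp KO 1 rose and 2 fell. Over all tested genes 24.7% rose and 24.6% fell in double KO, 7.27% rose and 8.83% fell in Ep300 KO, and 1.52% rose and 1.61% fell in Crebbp KO, so that the Crebbp KO counts are near the background. The cytokine that gives the receptor its name, Tnf, was below the filter, at no more than 0.0543 CPM in any library, and Il1b had 0 counts in every library. Of the 30 targets on the list, 15 were tested. Like all 53, they passed the filter on their counts in at least 1 group, so these calls and medians do not speak for the whole list. Of the 15, 11 rose and 2 fell in double KO (median 1.63), and 9 rose and 2 fell in Ep300 KO (median 0.95).

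Cxcl10, a chemokine that NF-κB and interferon signalling both induce, had 101, 109 and 108 CPM in double KO, 36.6, 33.7 and 35.4 in Ep300 KO, 23.5, 23.7 and 24.6 in Crebbp KO, and 18.3, 18.3 and 17.9 in control. It rose in each knockout, by 2.54 ± 0.06 in double KO (adjusted p = 1.08e-13), 0.95 ± 0.06 in Ep300 KO (adjusted p = 1.83e-08) and 0.40 ± 0.06 in Crebbp KO (adjusted p = 0.00236). Tapbp, the peptide-loading protein tapasin, rose to 82.8 CPM in double KO and 35.7 in Ep300 KO, against 14.2 in control (2.55 ± 0.09 and 1.34 ± 0.09). Tlr3, the receptor for double-stranded RNA, and Sdc4, a syndecan induced by inflammatory signals, rose in double KO by 2.33 ± 0.09 and 1.63 ± 0.07. In Ep300 KO the protease gene Plau rose by 2.10 ± 0.15 and the transcription factor Irf1 by 1.01 ± 0.08. In Crebbp KO the calls beside Cxcl10 were Tlr4, the endotoxin receptor, which fell by 0.46 ± 0.07, and Cflar, an inhibitor of caspase 8, which fell by 0.25 ± 0.06 on the log2 scale (adjusted p = 0.00296 and 0.0303). The Cflar call ended in 11 of 21 alternatives, and leaving out any 1 library ended it except control replicate 2 or an Ep300 KO library.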

How the data were processed

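Poly(A) RNA of 12 B16F10 libraries was read with a stranded mRNA kit, per the labels' protocols. The authors deposited raw counts of reads per Ensembl gene. The submitters' processing notes name bcl2fastq, HISAT2, HTSeq and the mm10 build, while versions and the counting's strand setting were not given in the sources used here.

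Symbols, positions, exon lengths and GC content came from GENCODE M21 on mm10, matched by Ensembl identifier. Groups were taken from the genotype labels. Genes passing filterByExpr were fitted in edgeR 4.0.16 (R 4.3.3) with TMM scaling and robust quasi-likelihood over all 12 libraries, and 6 pairwise contrasts and the interaction were tested. P-values were adjusted by the Benjamini-Hochberg method over all 18434 tested genes, with a threshold of 0.05. The standard error is the log2 fold change divided by the root of F, and 95% intervals use 8 degrees of freedom. The procedure was tested on simulated counts. Library totals of 64257251 to 85604243 limit precision through counting error only, and the biological coefficient of variation was 9.46%.

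Alternatives used DESeq2 1.42.0, limma 3.58.1, other filters and scalings, offsets for exon length and GC content, a replicate block, and 1 library left out at a time. The members and lists were chosen with earlier results of these data known. Every member is accounted for: those at 1 CPM or more in any group are given with group values, those called with an absolute log2 fold change of 0.5 or more with every library, and from the wider list the 4 called genes of smallest adjusted p per knockout. Histone genes without poly(A) tails were listed as a sign of RNA quality, but those symbols were not matched. A list of 54 clustered histone genes was therefore added after the data were seen. They summed to 4873 to 5537 CPM in double KO, 7120 to 7721 in Ep300 KO, 6808 to 8436 in Crebbp KO and 6059 to 7326 in control. All double KO libraries thus lay below all others. Of 51 tested, 22 were called lower and 3 higher in double KO, against 24.6% and 24.7% of all tested genes. Whether RNA quality differed between groups, which would limit the double KO comparisons, was not tested.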

Additional observations from a re-analysis of the deposited data

Results flagged for a closer look

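For 9 members the double KO log2 change differed from the sum of the Ep300 KO and Crebbp KO changes, by the interaction test of the edgeR fit. All lay above the sum, against 5.33% of tested genes above it and 4.96% below. Only Map3k14 and Cyld, 2 of the 9, stayed called under every alternative run. The excess was 1.41 for Map3k14, 2.00 for Bcl3, 0.58 for Cyld, 0.54 for Tnip2, 0.43 for Tnfrsf1a, 0.39 for Rel, 0.35 for Ripk1, 0.31 for Chuk and 0.30 for Ikbkg. With 3 libraries in each group, no library was tested for standing apart within its group.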

How the results depend on the processing

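Of 86 called member values over 7 comparisons, 62 kept their call and direction in every alternative run for them. These were 21, or 20 for the interaction, which could not be computed from only the groups compared, and 20 for Vcam1 against control, since Vcam1 does not pass the filter of 1 CPM in 3 libraries. Another 25 values were called in at least 1 alternative only, not counting Tnfaip2 in double KO over Ep300 KO, given below. Kept calls were 20 of 22 in double KO over control, 5 of 9 in Ep300 KO and 0 of 1 in Crebbp KO. They were 11 of 16 in double KO over Ep300 KO and 20 of 22 in double KO over Crebbp KO. The rest were 4 of 7 in Ep300 KO over Crebbp KO and 2 of 9 in the interaction. The cause of the changes below was not tested. With the replicate block, 4 members were higher in Ep300 KO, 0 were lower in Crebbp KO and 2 were above the sum of the single knockouts. The numbers did not pair the samples: same-numbered libraries correlated at -0.17 to 0.11, others at -0.23 to 0.21, and 1 of 12 libraries correlated best with its own number. With length and GC offsets, 5 members were lower in double KO than in control, 5 lower than in Ep300 KO and 5 above the sum. The shares of all tested genes were then 26.7%, 18.8% and 5.16%. Adding the replicate block gave 5 members lower than in Ep300 KO and 4 above the sum, against 16.4% and 4.12% of all tested genes. Tnfaip2 in double KO over Ep300 KO was not called without offsets or block (0.01, adjusted p = 0.957). It was called lower with offsets (-0.19, adjusted p = 0.0383) and with offsets and the block (-0.19, adjusted p = 0.0487). With only the groups compared, 4 members were higher and 1 lower in Ep300 KO, and 0 were lower in Crebbp KO. Between the single knockouts, 1 was lower in Ep300 KO. Shares of all tested genes there were 5.45% and 6.97% in Ep300 KO, 0.772% in Crebbp KO and 5.06% in Ep300 KO over Crebbp KO. DESeq2 called 1 member higher in Crebbp KO, against 3.60% of all tested genes, so that this count is near the background. Leaving out 1 library gave 4 to 7 higher and 1 to 3 lower in Ep300 KO, 0 to 1 lower in Crebbp KO, 18 to 19 higher in double KO, 12 to 17 higher and 0 to 1 lower in double KO over Ep300 KO, 17 to 19 higher in double KO over Crebbp KO, 3 to 5 higher and 1 to 3 lower in Ep300 KO over Crebbp KO, and 2 to 10 above the sum. Depth limits Tnfrsf1b, Traf1, Icam1 and Vcam1 most.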
